A study of Rattus norvegicus with 36 samples.

Results

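Lewis is an inbred rat strain, and its whole-lung RNA was compared here between postnatal day 1 (PN1, 3 arrays) and postnatal day 7 (PN7, 4 arrays). These 7 arrays were chosen by the strain and age in their labels, out of 36 one-colour Illumina beadchip arrays in the series. The other 29 arrays cover Lewis at PN14 and the Fisher and Brown Norway strains at all 3 ages, in a study of inherited influences on asthma susceptibility in the growing lung. No treatment or altered allele is given in the labels, and neither the sex nor the number of animals. Nothing in the labels says whether each replicate is its own animal, so the spread that the p-values rest on may be partly technical.

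In the days after birth the rat lung turns from simple saccules into alveoli. Septa grow into the air spaces along tracks of elastic fibres laid down by myofibroblasts, the capillaries are rebuilt into a thinner network, and type II cells make the surfactant that keeps the small air spaces open. Ligands of the bone morphogenetic protein (BMP), transforming growth factor beta and hedgehog families pattern this growth, and the secretory load of the epithelium draws on chaperones of the endoplasmic reticulum. Whole lung also holds blood, so red cell precursors and leucocytes add their RNA.

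Between 9942 and 10434 probes were detected on the PN1 arrays and between 9634 and 10166 on the PN7 arrays, at a detection p under 0.01. The median raw signal ran from 249.07 to 260.99 at PN1 and from 212.76 to 259.84 at PN7. Replicates correlated at 0.9955 to 0.9978 within PN1 and 0.9903 to 0.995 within PN7, and the median standard deviation of a probe was 0.052 at PN1 and 0.0857 at PN7 on the log2 scale. On the first principal component of the 7 arrays, with 47.6% of the variance, the ages lay apart. On the second, with 21.2%, PN7 replicate 3 lay apart from the other PN7 arrays. The labels place all 3 PN1 arrays and PN7 replicate 1 on slide 1, and PN7 replicates 2 to 4 on slide 2. For those 3 arrays age and slide cannot be told apart, and PN7 replicate 1 gives the comparison within a slide. The lung label was checked against the surfactant and alveolar type II list: 13 of its 23 genes were measured, with a list mean of 12.37 to 12.52 at PN1 and 12.04 to 12.21 at PN7, and Sftpc and Sftpb were detected on all 7 arrays.

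Of 11339 tested probes, 359 were higher and 418 lower at PN7, which is 6.85% in either direction, 3.17% higher and 3.69% lower (limma, Benjamini-Hochberg adjusted p under 0.05). Of these, 33 rose and 11 fell at least 2-fold, or 0.388% of the tested probes. The median log2 difference over all tested probes was -0.0021. The PN1 and PN7 arrays did not overlap in 2575 probes, 22.7% of those tested, of which 1280 (11.3%) were higher and 1295 (11.4%) lower at PN7.

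These counts moved with a slide block, with scaling and with single arrays. Fitting slide as a fixed block left 54 probes, 23 higher and 31 lower (0.476%). The block is estimated from the groups split between slides, which are Lewis PN7, Lewis PN14 and Brown Norway PN1. The Brown Norway PN1 array on slide 3 is replicate 5, described below. No block fit left it out, so its part in the drop was not tested. PN7 replicate 1 alone against PN1 within slide 1 gave 88 higher (0.776%) and 35 lower, 1.08% together. That fit holds the arrays of slide 1 and takes the lone PN7 array to vary like the other groups. Scaling each array by its median in place of quantile normalisation left 12 higher and 25 lower, so the share of higher calls moved from 46.2% to 32.4%. The count fell to 263 without PN1 replicate 1, to 482 without PN1 replicate 2 and to 437 without PN1 replicate 3. It rose to 1404 without 2 Brown Norway arrays, PN1 replicate 5 and PN14 replicate 3, which resemble each other's group: PN1 replicate 5 correlated at 0.964 to 0.975 with the other PN1 arrays of its strain and at 0.993 to 0.997 with the PN14 arrays, and PN14 replicate 3 at 0.971 to 0.975 with PN14 and at 0.984 to 0.994 with PN1.

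**Figure D1:**
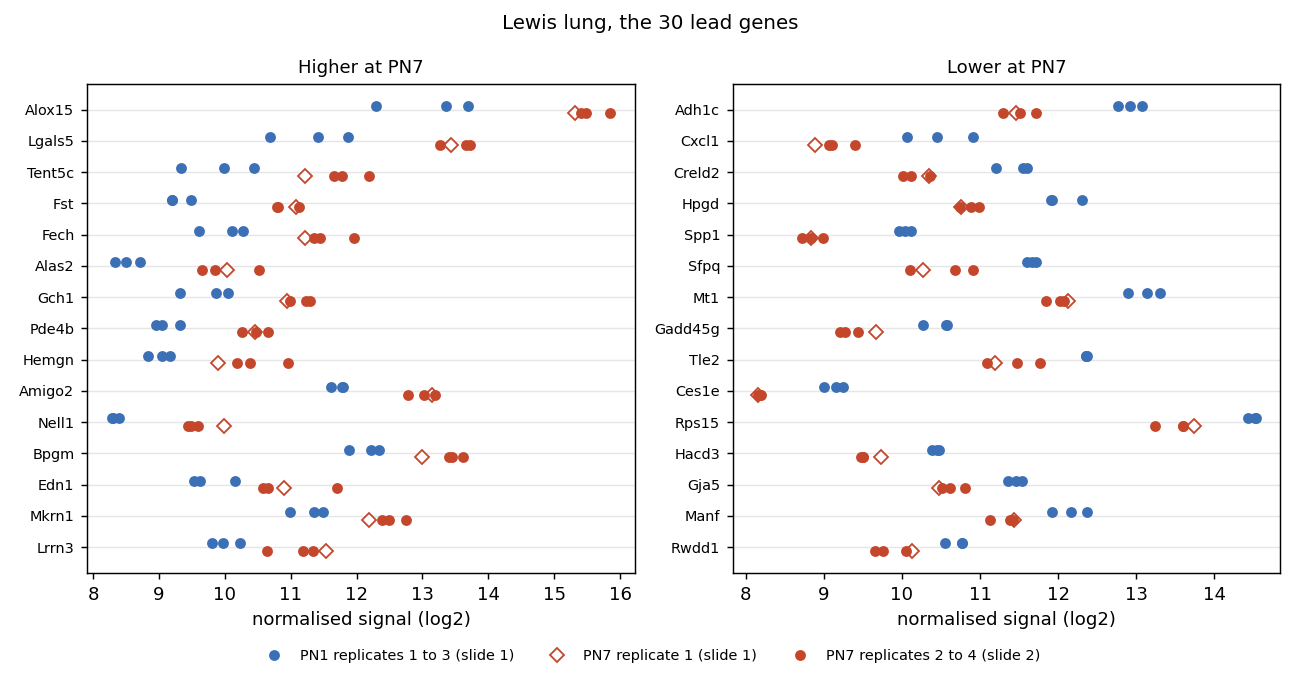
Normalised log2 signal of the 15 genes with the largest rise and the 15 with the largest fall under the naming rule, 1 point per array, blue for PN1, red for PN7 and an open diamond for PN7 replicate 1. In each of these 30 genes all 4 PN7 arrays lie on 1 side of all 3 PN1 arrays, which the rule required.

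Red cell genes rose in Lewis lung between PN1 and PN7. Of 39 listed erythroid genes 21 were measured, 8 rose and 0 fell, so 38.1% of the list passed, where 3.17% of all tested probes were higher. The list's median difference was 0.20 on the log2 scale, beside -0.0021 over all probes. In whole-lung RNA more cells of a type and more RNA per cell cannot be told apart.

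Lgals5, a galectin of rat reticulocytes, read 11.41, 11.86 and 10.68 on PN1 replicates 1 to 3 and 13.43, 13.72, 13.67 and 13.27 on PN7 replicates 1 to 4, in log2 of the normalised signal. Its lowest PN7 array lay well above its highest PN1 array, and the difference was 2.20 ± 0.31 (SE), a 4.60-fold rise (adjusted p = 8.09e-05, limma). Alas2, the erythroid enzyme that starts haem synthesis, read 8.49, 8.71 and 8.34 at PN1 and 10.03, 10.52, 9.85 and 9.65 at PN7, a difference of 1.50 ± 0.31 (adjusted p = 0.00347). Here the array on the PN1 slide, PN7 replicate 1, was the second highest of the 4. Fech, which puts iron into the haem ring, read 10.10, 10.28 and 9.61 at PN1 against 11.22, 11.45, 11.96 and 11.35 at PN7, a difference of 1.50 ± 0.35 (adjusted p = 0.00874). A further Fech probe differed by 1.23 (adjusted p = 0.00368).

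The other members that rose serve red cell metabolism and the red cell membrane. Bpgm, whose product lowers the oxygen affinity of haemoglobin, differed by 1.21, and the blood group protein Rhd by 1.14. Add2 of the membrane skeleton differed by 1.08, the anion exchanger Slc4a1 by 1.02 and the membrane protein Epb42 by 0.33. Ahsp, the chaperone of alpha globin, had a difference of 0.81 with an adjusted p of 0.288. The regulators of erythroid genes Gata1, Klf1 and Tal1 had differences of 0.08, 0.07 and -0.02, with adjusted p of 0.431, 0.435 and 0.58. Hbb, a beta globin chain, read between 16.06 and 16.11 on all 7 arrays, but its raw signal was at 97.4% to 100% of each array's brightest probe, so near the top of the scale that a change could not be read.

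Some of the largest rises lay outside the erythroid list, and the genes below were grouped after their values were seen. Alox15 is on the type 2 immune response list, where 1 of 15 measured genes passed (6.67%, near the 6.85% of all probes). Alox15, a lipoxygenase that acts on organelle membranes in maturing reticulocytes, read 13.36, 13.70 and 12.29 at PN1 and 15.31, 15.49, 15.85 and 15.41 at PN7. PN1 replicate 3 was its lowest array, the groups stood apart, and the difference was 2.40 ± 0.61 (adjusted p = 0.0148). Tent5c, a poly(A) polymerase, differed by 1.79, the haematopoietic nuclear protein Hemgn by 1.34 and the ubiquitin ligase Mkrn1 by 1.18. Without PN1 replicate 3, Alox15 had an adjusted p of 0.102, Tent5c 0.0571, Fech 0.0603 and Hemgn 0.053, and without PN1 replicate 1 Alox15 had 0.051.

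The erythroid list mean per array was 10.03 to 10.25 at PN1, 10.56 on PN7 replicate 1 and 10.69 to 10.90 on PN7 replicates 2 to 4. It was 10.02 to 10.21 on the 4 Lewis arrays of PN14. Of the members only Lgals5 passed with slide as a fixed block, at 1.98 (adjusted p = 0.0276), and 0 members passed within slide 1, where Lgals5 differed by 2.11 and Alas2 by 1.51. Median scaling left 3 members passing. Fisher and Brown Norway lungs had erythroid medians of 0.34 and 0.67, with changes in Lgals5 of 2.48 and 1.57. GATA factors drive red cell genes through short sites, and AGATAA is the form searched here. In the 250 bases before the RefSeq start on the rat build GRCr8, read on both strands, that motif was found in 10.3% of 33469 promoters. It was found in 5 of the 7 promoters available for members that rose (Lgals5, Fech, Alas2, Rhd and Add2) and in 1 of 8 for members that did not pass. Other forms of the site were not counted. In a list of red cell genes a share above that of all promoters could be foreseen, so the counts are a description.

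**Figure D2:**
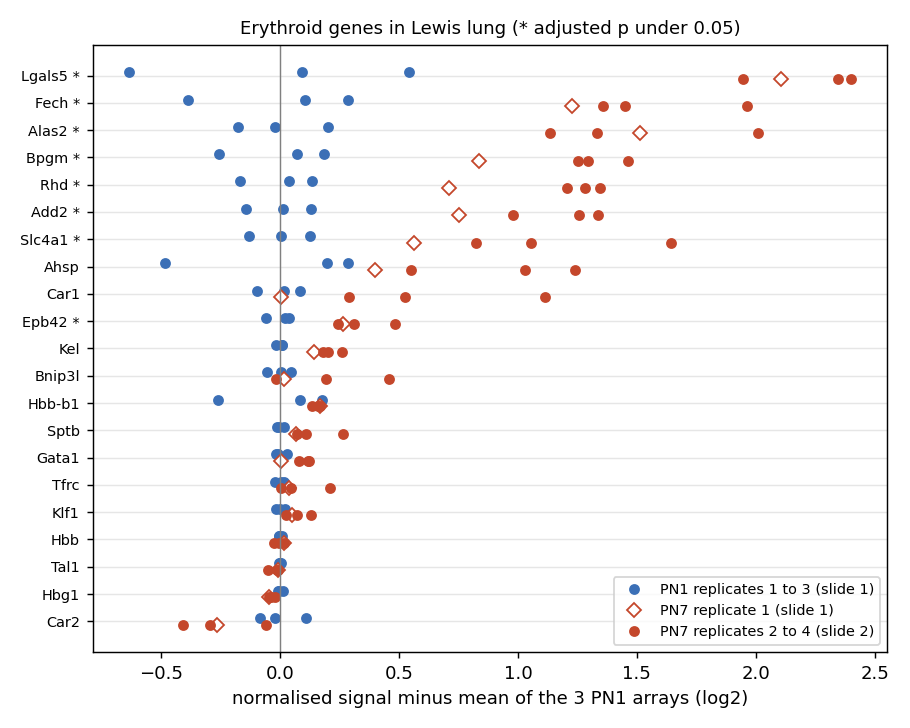
Each of the 21 measured erythroid genes on the 7 Lewis arrays, as log2 signal minus the mean of the 3 PN1 arrays, with blue for PN1, red for PN7 and an open diamond for PN7 replicate 1. Lgals5, with a difference of 2.20, lies furthest to the right, and Gata1, Klf1 and Tal1 lie close to 0, as does Hbb, whose probe is near the top of the scale.

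Chaperones of the endoplasmic reticulum fell in Lewis lung over the same interval. They fold secreted and membrane proteins, and their genes are switched on together when unfolded protein builds up, through a promoter element known as the ER stress response element (ERSE) and a shorter relative, ERSE-II. Of 36 listed genes 25 were measured, 9 fell and 0 rose, so 36% of the list passed where 3.69% of all tested probes were lower. The median difference was -0.24.

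Creld2, a secreted helper of protein folding, read 11.55, 11.20 and 11.60 at PN1 and 10.35, 10.36, 10.01 and 10.11 at PN7. Its groups stood well apart, with a difference of -1.24 ± 0.15 (adjusted p = 7.41e-06). Manf, a protein secreted under folding stress, read 12.37, 11.92 and 12.16 at PN1 and 11.43, 11.43, 11.13 and 11.39 at PN7, a difference of -0.81 ± 0.13 (adjusted p = 0.000457). Hspa5, the main chaperone of the compartment, also known as BiP, read 15.08, 14.66 and 14.98 at PN1 and 14.36, 14.25, 14.49 and 14.35 at PN7. All 4 PN7 arrays of Hspa5 were below the lowest PN1 array, and the difference was -0.55 ± 0.11 (adjusted p = 0.00292).

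Xbp1, a transcription factor of the folding response, differed by -0.48, and Herpud1, which helps to clear misfolded proteins, by -0.47. Canx, a lectin chaperone, differed by -0.79, Ddit3, a factor that promotes cell death under prolonged stress, by -0.66, and the co-chaperones Dnajb9 and Dnajc3 by -0.42 and -0.36. The other 16 measured members did not pass, among them Pdia4 at -0.31 (adjusted p = 0.0541), Calr at -0.23 (adjusted p = 0.121), Atf4 at -0.04 and Pdia3 at -0.03. Array by array, the list mean was 11.61, 11.47 and 11.62 at PN1 and 11.24 to 11.29 at PN7, with PN7 replicate 1 at 11.29, the highest of its group.

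Promoter sequences of these genes are shown because several members that fell hold the element. The 250 bases before the start of Creld2 and Hspa5, and shorter windows around the match for 4 further genes, were taken from RefSeq on build GRCr8 and are written 5′ to 3′ along the gene's own strand, with the match in capitals. ERSE was searched as CCAAT and CCACG with 9 bases of any kind between them, and ERSE-II as ATTGG and CCACG with 1 base between them, on both strands.
Creld2, chr7:121789134-121789383, plus strand: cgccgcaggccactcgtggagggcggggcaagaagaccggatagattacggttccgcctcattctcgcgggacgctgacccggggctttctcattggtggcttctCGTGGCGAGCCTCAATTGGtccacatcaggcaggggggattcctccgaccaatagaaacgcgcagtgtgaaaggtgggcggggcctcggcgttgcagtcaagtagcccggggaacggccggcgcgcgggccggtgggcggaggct
Hspa5, chr3:38452766-38453015, plus strand: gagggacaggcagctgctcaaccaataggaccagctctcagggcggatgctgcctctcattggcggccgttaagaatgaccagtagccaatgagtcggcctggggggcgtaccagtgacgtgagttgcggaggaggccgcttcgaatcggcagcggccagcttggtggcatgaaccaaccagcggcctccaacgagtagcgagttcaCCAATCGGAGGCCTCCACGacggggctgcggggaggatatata
Xbp1, chr14:84604552-84604582, plus strand: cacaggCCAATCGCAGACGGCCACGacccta
Dnajc3, chr15:102432528-102432558, plus strand: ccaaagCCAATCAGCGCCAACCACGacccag
Herpud1, chr19:10614815-10614837, minus strand: gcgctgATTGGGCCACGttgggc
Calr, chr19:40213129-40213159, plus strand: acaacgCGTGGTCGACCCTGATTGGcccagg

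ERSE was found in 22 of 33469 promoter windows (0.0657%) and ERSE-II in 14 (0.0418%). Of 8 genes that fell and had a promoter in the table, 5 held ERSE, among them Creld2, Hspa5, Xbp1 and Dnajc3, and 1 held ERSE-II (Herpud1). Among the 14 measured members with a promoter that did not pass, 1 held ERSE (Calr) and 0 held ERSE-II. In Creld2 and Calr the match lies on the opposite strand to the gene. In Hspa5 it begins 43 bases before the start. Only exact matches in these windows were counted, so a promoter without one may hold a variant or more distant element. As the list was drawn up from folding genes, a share above that of all windows could be foreseen. The counts are a description, and whether the element bears on the fall was not tested.

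The slide block and single arrays bore on these calls. Creld2 passed with slide as a fixed block at -0.96 (adjusted p = 0.0153), Manf stood at -0.64 (adjusted p = 0.0772) and Hspa5 at -0.48 (adjusted p = 0.156), and 1 of the 25 members passed. Within slide 1 the values were -1.10 for Creld2, -0.72 for Manf and -0.55 for Hspa5, with 0 members passing. Leaving out 1 Lewis array left between 4 and 7 members passing, with the fewest without PN1 replicate 1 (4) and 5 each without PN7 replicates 1 and 2. Without PN1 replicate 1, Canx had an adjusted p of 0.124 and Ddit3 of 0.248. Median scaling left 2 members passing.

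The cytosolic heat shock genes fell beside them. Of 20 listed genes 12 were measured, 5 fell and 0 rose (41.7% of the list, beside 3.69% of all tested probes lower), with a median of -0.22. Median scaling left 0 of them passing. Hspa8, the constitutive cytosolic HSP70, read 14.44, 14.18 and 14.41 at PN1 and 13.64, 13.66, 13.48 and 13.77 at PN7, a difference of -0.71 ± 0.09 (adjusted p = 3.12e-05). The PN7 arrays lay below every PN1 array, and Hspa8 also passed with a slide block (-0.62, adjusted p = 0.0197) and within slide 1 (-0.70, adjusted p = 0.029). The HSP70 partner Dnaja1 differed by -0.40 and the small heat shock protein Hspb1 by -0.48. Chordc1, a partner of HSP90, differed by -0.46 and Dnajb1 by -0.31, with overlap between the groups in both. Without PN1 replicate 1 these had adjusted p of 0.269 and 0.248, and Hspb1 had 0.0993. Hspa8 and Dnaja1 passed with slide as a block, and 2 or 3 members passed when any single Lewis array other than PN7 replicate 4 was left out.

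The other 2 strains changed in other ways in a part of these chaperones. The median over the 25 endoplasmic reticulum genes was 0.08 in Fisher and 0.03 in Brown Norway. Hspa5 rose there by 0.75 (adjusted p = 2.9e-06) and 0.54 (adjusted p = 7.49e-05), and Creld2 had differences of 0.00 in Fisher and 0.55 in Brown Norway. The change in Lewis was lower than that in Fisher for 9 of the 25 genes, where 1.52% of all tested probes were lower in that contrast. Against Brown Norway it was again lower for 9, where 10.8% of all probes were. In both contrasts at once 7 members were lower (0.785% of all probes): Creld2, Manf, Hspa5, Xbp1, Pdia4, Calr and Dnajb11. Canx, Ddit3, Herpud1, Dnajb9 and Dnajc3, which also fell in Lewis, were not among them. Of the 12 heat shock genes 3 were lower in both contrasts (Hspa8, Chordc1 and Dnaja1), while Dnajb1 fell in Fisher too (-0.25, adjusted p = 0.0437, limma). The endoplasmic reticulum count of 7 was the same with slide as a fixed block and without the 2 Brown Norway arrays that resemble each other's group. It was 1 with median scaling. The slide block bears little on these contrasts, as the strains mostly share slides. At PN1 the Lewis list mean was 11.47 to 11.62, against 11.19 to 11.29 in Fisher and 11.25 to 11.46 in Brown Norway. At PN7 Lewis was at 11.24 to 11.29, against 11.30 to 11.51 and 11.39 to 11.44. Lewis was thus the highest of the 3 strains at PN1 and the lowest at PN7, with no overlap in the array means at either age.

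**Figure D3:**
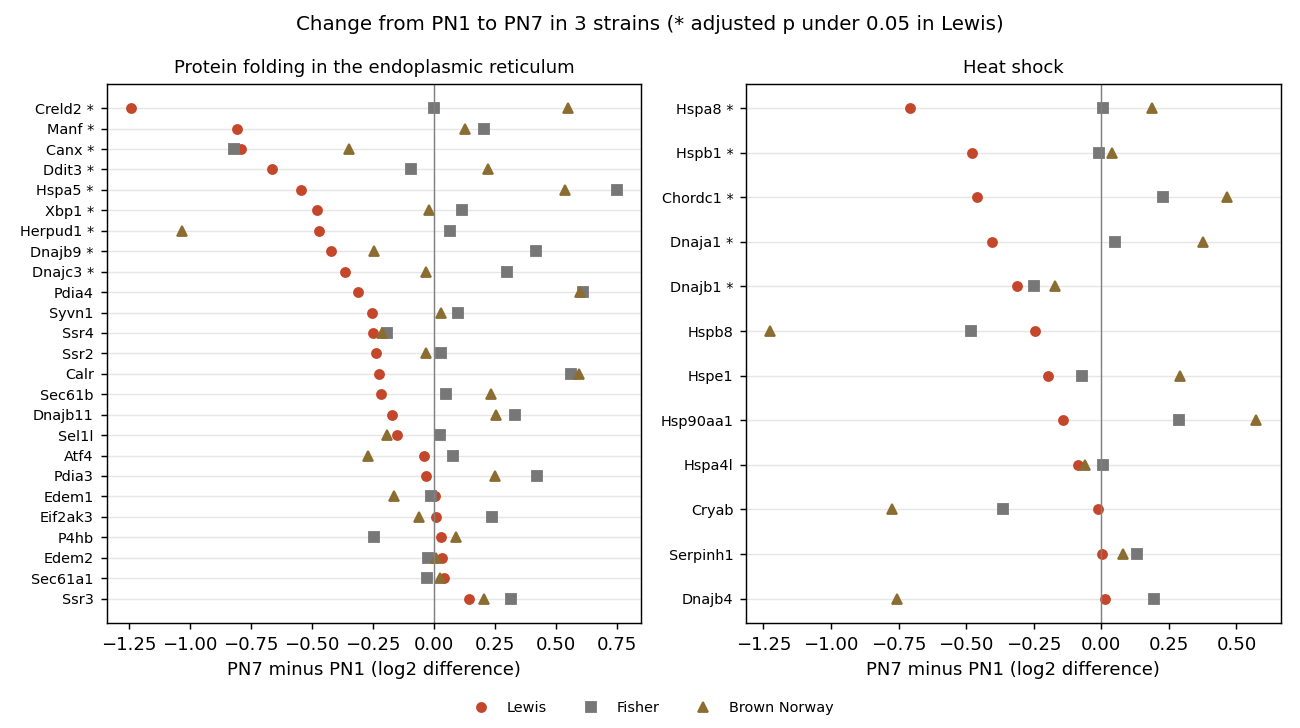
Log2 difference PN7 minus PN1 for each measured gene of the endoplasmic reticulum folding list (left) and the heat shock list (right), with red circles for Lewis, grey squares for Fisher and brown triangles for Brown Norway. Hspa5 is at -0.55 in Lewis, 0.75 in Fisher and 0.54 in Brown Norway, while Canx is on the negative side in all 3.

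Among signalling genes, members and inhibitors of the BMP family changed. Fst encodes follistatin, which binds and blocks activins and some BMPs. It read 9.19, 9.49 and 9.19 at PN1 and 11.09, 10.81, 10.79 and 11.12 at PN7, so every PN7 array was well above every PN1 array. The difference was 1.66 ± 0.17, a 3.16-fold rise with the smallest adjusted p of the named genes (7.54e-07). It was 1.76 with slide as a block (adjusted p = 9.57e-06) and 1.79 within slide 1 (adjusted p = 0.00869). Fst had differences of 0.32 in Fisher and 0.38 in Brown Norway, and the Lewis change was larger than each, by 1.34 (adjusted p = 0.000357) and 1.28 (adjusted p = 0.000209).

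Bmp4, a ligand that restrains epithelial budding, read 10.07, 9.93 and 10.07 at PN1 and 9.39, 9.27, 9.06 and 9.51 at PN7, a difference of -0.72 ± 0.15 (adjusted p = 0.00394). Bmp2, a related ligand, moved the other way, from 8.45, 8.42 and 8.46 to 9.01, 9.07, 9.23 and 8.76 (0.58 ± 0.10, adjusted p = 0.00113). Neither pair of groups overlapped. Bmp3, which opposes other BMPs, fell by 0.28 (adjusted p = 0.00197), and Fstl1, a secreted follistatin relative, rose by 0.43 (adjusted p = 0.0285), a call lost when any single one of PN1 replicates 1 to 3 or PN7 replicates 1 and 3 was left out (adjusted p 0.0551 to 0.0993). In all, 3 of 32 measured genes of the TGF-beta and BMP list rose and 2 fell, 15.6% beside 6.85% of all probes, with a median of 0.08. The receptors Bmpr1a, Bmpr2 and Acvr1 differed by -0.05, 0.17 and 0.02, and the response genes Id1, Id2 and Id3 by -0.05, 0.11 and 0.12, none passing. Fst and Bmp3 passed with slide as a block, where Bmp4 stood at -0.74 (adjusted p = 0.0661). The Lewis change was lower than in both other strains for Bmp4 and Bmp3. In the hedgehog list, Dhh rose by 0.29 (adjusted p = 0.0503 without PN1 replicate 1) and Shh fell by 0.24. That is 33.3% of its 6 measured genes, beside 6.85% of all probes. In the Wnt and FGF pathways 0 of 20 and 0 of 14 genes passed.

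Genes of the vessel wall changed in both directions, and some genes of airway tone rose. Pde4b, a phosphodiesterase that breaks down cyclic AMP, read 8.95, 9.33 and 9.05 at PN1 and 10.46, 10.47, 10.66 and 10.26 at PN7, a difference of 1.35 ± 0.22 (adjusted p = 0.000399). PN7 replicate 1, on the PN1 slide, gave the same difference of 1.35. Edn1, the constrictor endothelin, read 9.54, 10.15 and 9.63 at PN1 and 10.90, 10.59, 10.65 and 11.70 at PN7, with PN7 replicate 4 well above the rest (1.19 ± 0.28, adjusted p = 0.00954). Gch1, which starts the synthesis of the nitric oxide synthase cofactor, differed by 1.37 ± 0.29 (adjusted p = 0.00394). With slide as a block it differed by 1.27 (adjusted p = 0.132, limma). Gch1 is on neither the endothelial nor the airway contraction list and was grouped here after its value was seen. Gja5, a connexin of arterial endothelium, read 11.36, 11.46 and 11.54 at PN1 and 10.48, 10.51, 10.61 and 10.80 at PN7, a difference of -0.85 ± 0.19 (adjusted p = 0.00548).

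Of 31 measured endothelial genes 3 rose (Edn1, Vwf at 0.64 and the tight junction gene Cldn5 at 0.40) and 1 fell (Gja5), 12.9% beside 6.85% of all probes, with a median of 0.21. Cdh5, Tek and Tie1, which mark endothelium as a whole, had differences of 0.23, 0.25 and 0.44 and did not pass. Of 20 measured genes of airway contraction 3 rose (Pde4b, Edn1 and the thromboxane synthase Tbxas1) and 0 fell, 15% beside 3.17% of all probes higher. Fitting slide as a block left 0 of the endothelial and 0 of the airway contraction genes, and without PN1 replicate 1 Edn1 had an adjusted p of 0.0726, Vwf of 0.0864 and Tbxas1 of 0.114, and 0 endothelial genes rose. Cldn5 lost its call without PN1 replicates 1, 2 or 3 and without PN7 replicates 2 or 3, with adjusted p up to 0.14.

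Further large rises were in genes of cell surfaces and secretion. Nell1, a secreted protein known from bone growth, read 8.30, 8.39 and 8.29 at PN1 and 9.99, 9.44, 9.49 and 9.60 at PN7, so that the array on the PN1 slide was the highest of the 4. Its difference was 1.30 in all and 1.04 with slide as a block (adjusted p = 0.270). Within slide 1 it was 1.66, from a single PN7 array and with a spread taken from PN1 arrays. The standard deviation of Nell1 was 0.06 at PN1 and 0.25 at PN7. In the authors' deposited log2 values Nell1 differed by 2.50, with an adjusted p of 0.119. The adhesion proteins Amigo2 and Lrrn3 differed by 1.30 and 1.17, and within slide 1 by 1.42 (adjusted p = 0.0348) and 1.53 (adjusted p = 0.00869), but with slide as a block by 0.88 (adjusted p = 0.399) and 0.93 (adjusted p = 0.326). Without PN1 replicate 1 Amigo2 had an adjusted p of 0.051 and Lrrn3 of 0.0837, and Lrrn3 also lost its call without PN1 replicate 2 or PN7 replicates 1 or 2. Gpc4, a glypican that binds growth factors, differed by 0.88 and the neuropeptide Npy by 1.06. Cyp26b1, which degrades retinoic acid, differed by 1.03, with an adjusted p of 0.078 without PN1 replicate 2.

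The lead genes that fell also included metabolic enzymes and secreted proteins. Adh1c, an alcohol dehydrogenase that also oxidises retinol, read 13.08, 12.92 and 12.77 at PN1 and 11.46, 11.29, 11.71 and 11.51 at PN7. The PN7 arrays lay far below the PN1 arrays, with a difference of -1.43 ± 0.35 (adjusted p = 0.0124) and -1.46 within slide 1 (adjusted p = 0.00591), but -0.92 with slide as a block (adjusted p = 0.436). Hpgd, which inactivates prostaglandins, read 11.91, 11.92 and 12.31 at PN1 and 10.76, 10.74, 10.89 and 10.98 at PN7 (-1.20 ± 0.23, adjusted p = 0.00209, and -1.50 with slide as a block, adjusted p = 0.0138). Cxcl1, a neutrophil attractant, read 10.45, 10.06 and 10.91 at PN1 and 8.89, 9.40, 9.10 and 9.07 at PN7 (-1.36 ± 0.40, adjusted p = 0.0358).

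Spp1, the matrix cytokine osteopontin, read 10.12, 10.04 and 9.96 at PN1 and 8.84, 8.83, 8.72 and 8.99 at PN7, a difference of -1.20 ± 0.28 (adjusted p = 0.00954). The arrays of each age lay close together. Ces1e, a carboxylesterase, was detected on all 3 PN1 arrays and on 0 of the PN7 arrays, and was at least 1.95-fold lower. The metal-binding Mt1 differed by -1.09, the growth arrest gene Gadd45g by -1.07, the splicing factor Sfpq by -1.17, and Tle2, a transcriptional corepressor, by -0.98. Both Sfpq and Tle2 kept their calls with slide as a block, at -1.40 and -1.17, and within slide 1.

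Several of these calls were lost when 1 array was left out, with differences close to the main ones. Without PN1 replicate 1 the adjusted p was 0.075 for Adh1c, 0.0545 for Spp1, 0.0606 for Mt1, 0.113 for Cxcl1 and 0.162 for Gadd45g. The differences then included -1.35 for Adh1c, -1.16 for Spp1 and -1.37 for Cxcl1. Cxcl1 also lost its call without PN1 replicate 3 (0.163) or PN7 replicates 1, 3 or 4. Gadd45g passed only with all 7 arrays or without PN7 replicate 1. Over the 30 lead genes 16 passed whichever Lewis array was left out, and over the 104 named genes that passed, 45 did. Where a call of the other 59 was lost in this way, the difference was 0.71 to 1.17 times the main one, with a median of 0.96.

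**Figure D4:**
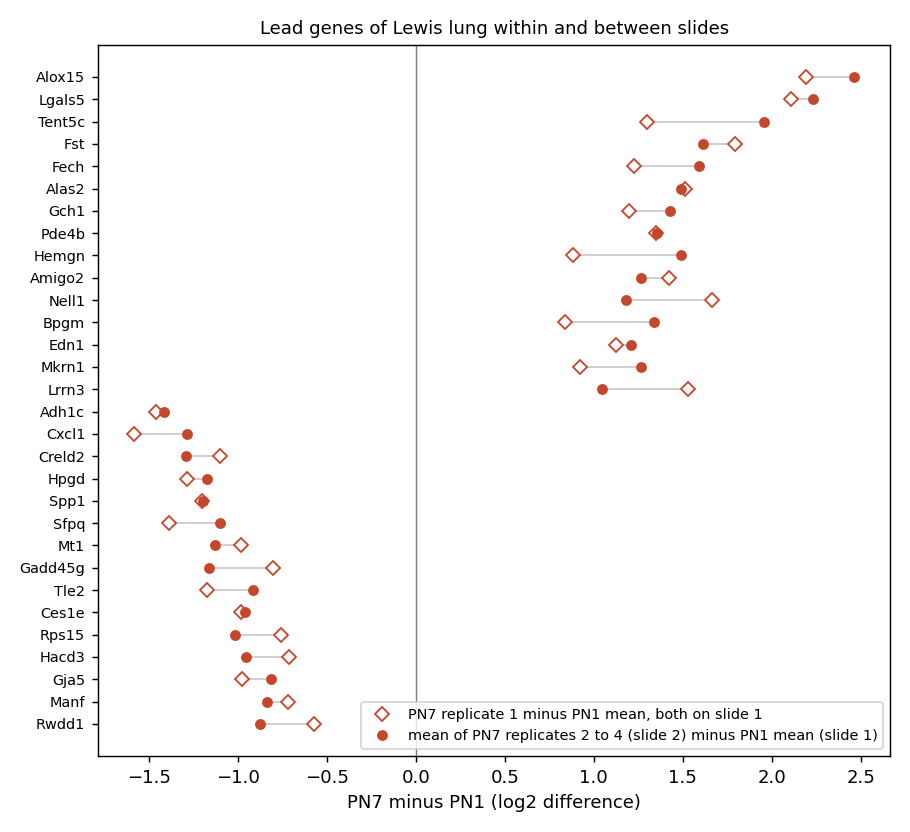
Log2 difference from the mean of the 3 PN1 arrays for the 30 lead genes, with an open diamond for PN7 replicate 1, which shares slide 1 with PN1, and a filled circle for the mean of PN7 replicates 2 to 4 on slide 2. Both markers use the same PN1 arrays, and for Pde4b both stand at about 1.35.

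For the 30 lead genes, the sign of PN7 replicate 1 against PN1 was part of the naming rule and is a description. With slide as a fixed block all 30 kept their sign, at 0.5 to 1.25 times the main difference, and 6 passed: Lgals5, Fst, Creld2, Hpgd, Sfpq and Tle2. The 6 that shrank by more than 1.5 times include Alox15, from 2.40 to 1.27, Bpgm from 1.21 to 0.75 and Hacd3 from -0.89 to -0.45. On PN7 replicate 1 within slide 1 Alox15 differed by 2.19, and on PN7 replicates 2 to 4 by 2.47, both above its block value. Hacd3 differed by -0.71 and -0.95, both further from 0 than its block value. The block also draws on Brown Norway PN1 replicate 5 on slide 3, which resembles PN14, and its part was not tested. Within slide 1, 7 passed: Fst, Amigo2, Nell1, Lrrn3, Adh1c, Sfpq and Tle2. The median standard error of a probe was 0.078 in the fit to all arrays, 0.103 with slide as a block and 0.106 within slide 1.

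Elastic fibre genes mostly had positive differences that did not pass in the fit to all arrays. Eln, elastin itself, read 14.268, 14.004 and 13.834 at PN1 and 15.073, 14.721, 14.702 and 14.813 at PN7. The groups did not overlap, but the difference of 0.79 ± 0.32 had an adjusted p of 0.143 (0.43 with slide as a block, 1.04 within slide 1). Over the alternative settings its adjusted p ran from 0.00091 to 0.773 (limma), so whether Eln passed depended on the setting. Of 15 measured elastic fibre genes 1 passed, a share of 6.67% that is near the 6.85% of all probes. It was the microfibril gene Fbn1, which rose (0.50 ± 0.12, adjusted p = 0.0102, and 0.0696 without PN1 replicate 1). The median of the list was 0.32, with 11 members on the positive side, and medians in Fisher and Brown Norway of 0.41 and 0.36. Without the 2 Brown Norway arrays that resemble each other's group, 8 members rose and 1 fell, and with only the 7 Lewis arrays in the fit 6 rose.

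Of 22 measured genes of collagens and collagen processing 2 rose and 2 fell, 18.2% beside 6.85% of all probes. Col5a1 and the procollagen protease Adamts2 differed by 0.46 and 0.62, while the prolyl hydroxylases P4ha1 and P4ha3, which stabilise collagen, differed by -0.60 (adjusted p = 0.000409) and -0.21. Both hydroxylases passed with slide as a block. Col1a1 had a difference of 0.37 with an adjusted p of 0.426. Of 20 matrix proteases and inhibitors 4 rose and 2 fell, 30% beside 6.85% of all probes: Mmp12, the macrophage elastase, by 0.36, Mmp23 by 0.53, Adamts5 by 0.49 and the cathepsin Ctsl by 0.30, against Ctss at -0.47 and Mmp11 at -0.25. Mmp12 and Ctsl also passed with slide as a block, and 2 members rose without PN1 replicates 1 or 3 or PN7 replicate 2. Without PN1 replicate 1 the adjusted p was 0.114 for Adamts2, 0.0545 for Col5a1, 0.0891 for Mmp23, 0.0662 for Adamts5 and 0.0726 for Ctss.

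Few epithelial genes passed, and those that did fell. Of 13 measured surfactant and alveolar type II genes 2 fell and 0 rose, 15.4% beside 3.69% of all probes lower, with a median of -0.38. Sftpc, surfactant protein C, read 14.56, 14.57 and 14.51 at PN1 and 14.32, 14.15, 13.94 and 14.10 at PN7 (-0.42 ± 0.11, adjusted p = 0.0236). It stood at -0.12 with slide as a block and at -0.23 within slide 1, neither passing, and its adjusted p was 0.058 to 0.0908 when any single one of PN1 replicates 1 to 3 or PN7 replicate 3 was left out. Ppp1r14c differed by -0.65 (adjusted p = 0.00647, 0.242 with slide as a block). Sftpb and Napsa had differences of -0.49 and -0.55 without passing. Scgb1a1, the club cell secretory protein, read between 15.98 and 16.08 on all 7 arrays, with a raw signal of 85.4% to 98.3% of the array's brightest probe, so that a change there could not be read. Of 11 measured club cell genes 1 fell and 0 rose, 9.09% beside 3.69% of all probes lower, with a median of 0.01. It was Kcne2, a potassium channel subunit, at -0.70 (adjusted p = 0.000348, and 0.0106 with slide as a block). Of 17 ciliated airway cell genes 1 fell (5.88%), with a median of -0.05. Of 19 alveolar type I genes 0 passed, with 14 on the positive side and a median of 0.16.

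Some cytoplasmic ribosomal protein genes also fell: 12 of 58 measured genes fell and 0 rose, 20.7% beside 3.69% of all probes, with a median of -0.10. Rps15 read 14.52, 14.44 and 14.53 at PN1 and 13.74, 13.60, 13.24 and 13.60 at PN7 (-0.95 ± 0.15, adjusted p = 0.000287), with PN7 replicate 3 the lowest. Rps29 differed by -0.63, Rpl13 by -0.40, Rps26 by -0.36 and Rpl8 by -0.32, with adjusted p of 0.121 for Rps26 without PN1 replicate 3 and 0.0503 for Rpl13 without PN1 replicate 1. The count was 0 with slide as a block, 2 within slide 1, 1 with median scaling, and without 1 Lewis array 4 (PN1 replicate 1) to 12, with 6 each without PN1 replicate 3 or PN7 replicate 3. Ribosomal protein genes have many processed copies in the genome, so their probes may read related transcripts.

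Defence and stress genes changed in small numbers. Gclm and Gclc, the subunits of the enzyme that limits glutathione synthesis, rose by 0.77 and 0.27, and the thioredoxin reductase Txnrd1 by 0.26, while the superoxide dismutase Sod1 fell by 0.33 and the glutathione transferase Mgst1 by 0.62. These 5 were the passing members among 41 measured, 12.2% beside 6.85% of all probes, and 0 passed with slide as a block. Gclc had an adjusted p of 0.13 and Txnrd1 of 0.141 without PN1 replicate 1, which left 1 member higher. The complement genes C4b and C1r rose by 0.85 and 0.47, with Vwf and the thrombin receptor F2r, as 4 of 25 measured complement and coagulation genes, 16% beside 3.17% of all probes higher, and 0 passed with slide as a block. C4b had an adjusted p of 0.0402 within slide 1, of 0.0947 with slide as a block and of 0.0564 without PN1 replicate 3. Without PN1 replicate 1, C1r had 0.127 and F2r 0.0503, and 1 member of the list passed, against 2 without PN1 replicate 3. Ucp2, a mitochondrial carrier, rose by 0.67 (adjusted p = 0.000457, 0.0391 with slide as a block and 0.0117 within slide 1). Among 22 macrophage genes Ctss and Tyrobp fell, by 0.47 and 0.36, and among 9 mast cell genes the histidine decarboxylase Hdc fell by 0.37. These are shares of 9.09% and 11.1%, beside 3.69% of all probes lower. Of 24 interferon response genes Ifi47 fell by 0.35 and Ifitm3 rose by 0.25, a share of 8.33% that is near the 6.85% of all probes.

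In Lewis 1 cell cycle gene and 1 DNA replication gene passed. Of 44 measured cell cycle and mitosis genes 1 fell, the kinase Melk, by 0.09, and 0 rose, with a median of -0.08. That share of 2.27% is near the 3.69% of all probes that were lower. Of 39 DNA replication genes 1 fell, the helicase subunit Mcm3, by 0.29 (adjusted p = 0.00886, 0.0774 without PN1 replicate 3), with a median of 0.04. That share of 2.56% is also near the 3.69% of all probes. Cdk1, the kinase that drives entry into mitosis, read 12.28, 12.43 and 12.37 at PN1 and 12.42, 12.54, 12.14 and 12.12 at PN7. Its PN7 arrays lay on both sides of the PN1 arrays (-0.05 ± 0.23, adjusted p = 0.944). Melk lost its call when any single Lewis array other than PN1 replicate 1 was left out.

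The other 2 strains had cell cycle changes of opposite sign over the same days. The cell cycle median was -1.47 in Fisher and 1.23 in Brown Norway, with Cdk1 changing by -1.68 and 2.09. The Lewis change was higher than that of Fisher in 40 of the 44 genes (2.63% of all probes were higher in that contrast). It was lower than that of Brown Norway in 42 (10.8% of all probes). For DNA replication the counts were 22 and 32 of 39. Without the 2 Brown Norway arrays that resemble each other's group the cell cycle counts were 42 and 42, with slide as a block 39 and 42, and with median scaling 38 and 40. Lewis arrays had a cell cycle mean of 9.92 to 9.97 at PN1 and 9.68 to 9.97 at PN7, and of 8.70 to 8.80 at PN14. Fisher arrays stood at 10.42 to 10.62 at PN1 and 8.94 to 9.60 at PN7, and Brown Norway arrays at 8.86 to 9.37 and 10.12 to 10.37.

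**Figure D5:**
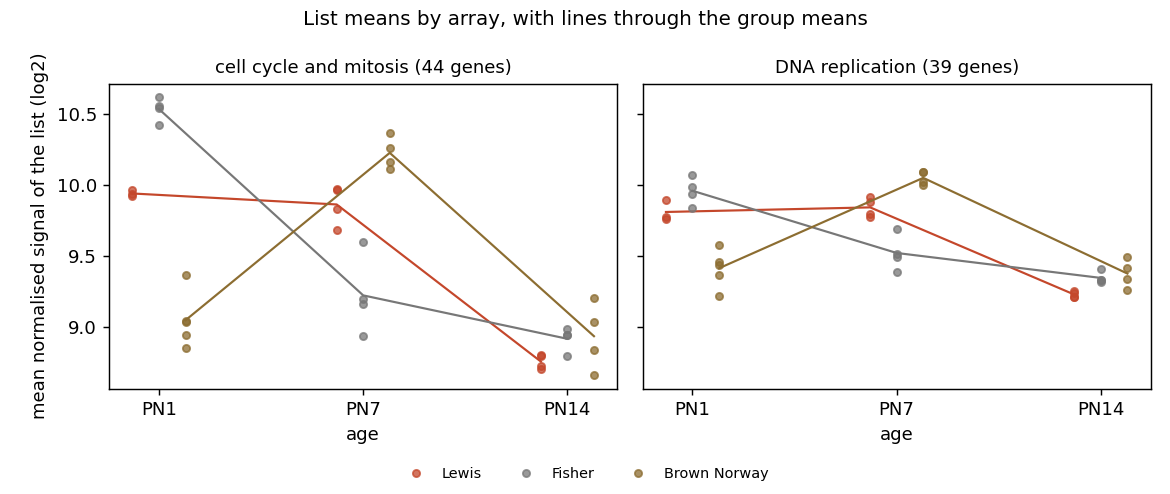
Mean log2 signal of the cell cycle list (left) and the DNA replication list (right) on each of the 36 arrays by age, with lines through the group means of Lewis (red), Fisher (grey) and Brown Norway (brown). Lewis stays between 9.68 and 9.97 at PN1 and PN7 in the cell cycle panel and reaches 8.70 to 8.80 at PN14.

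Over the whole array, 113 probes (0.997%) had a PN1 to PN7 difference in Lewis that differed from both other strains in the same direction, whether or not it passed in Lewis itself, 24 (0.212%) with a higher and 89 (0.785%) with a lower change. Against Fisher alone 2.63% of probes had a higher and 1.52% a lower change, and against Brown Norway alone 6.89% and 10.8%. With slide as a fixed block there were 109, of which 96 were among the 113. The strains mostly share slides at PN1 and PN7, so a slide block bears little on a difference between their changes. The count was 221 without the 2 Brown Norway arrays and 7 with median scaling. It fell to 71 without Lewis PN1 replicate 1 and to 66 without Lewis PN1 replicate 3.

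The 5 genes at the higher end were Fst, Anxa3, Ptgis, Arf2 and Procr. Anxa3, an annexin, read 12.68, 12.81 and 12.74 at PN1 and 13.17, 13.05, 13.02 and 13.47 at PN7 in Lewis, a difference of 0.44 with an adjusted p of 0.0585, against -0.53 in Fisher and -0.46 in Brown Norway. Ptgis, the prostacyclin synthase, differed by 0.46 in Lewis (adjusted p = 0.0984), -0.41 in Fisher and -0.54 in Brown Norway. Procr, the endothelial receptor of protein C, differed by 0.34, -0.36 and -0.52, and the small GTPase Arf2 by 0.47, -0.29 and -0.35. In these 4 genes the Lewis difference was positive and the differences of the other 2 strains were negative.

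At the lower end stood Maob, Creld2, Hspa5, S100g and Manf. Maob, the mitochondrial monoamine oxidase, read 10.97, 10.70 and 11.28 at PN1 and 10.34, 10.41, 10.29 and 9.99 at PN7, a fall of 0.73 on the log2 scale in Lewis (adjusted p = 0.019, and 0.129 without PN1 replicate 3). It rose by 0.91 in Fisher and 0.63 in Brown Norway, and the Lewis change was lower by 1.64 (adjusted p = 0.000109) and 1.36 (adjusted p = 0.000367). S100g, a calcium-binding protein, differed by -0.53 in Lewis with an adjusted p of 0.0646, 0.40 in Fisher and 0.53 in Brown Norway. Each of these 10 genes also differed from both strains with slide as a block and without the 2 Brown Norway arrays. With median scaling Fst, Hspa5 and Maob did.

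Between Lewis and Fisher 178 probes rose in both strains, 49.6% of the Lewis rises and 17.3% of the Fisher rises, and 156 fell in both (37.3% and 14.7%). Probes that rose in both Lewis and Brown Norway were 38.4% of the Lewis and 6.34% of the Brown Norway rises, and 98 fell in both (23.4% and 4.96%). The strains share no arrays in these comparisons, but they share slides 1 and 2, with PN1 replicate 5 of Brown Norway on slide 3. Fisher had 2087 changed probes (9.07% higher, 9.33% lower) and Brown Norway 4151 (19.2% higher, 17.4% lower), from 4 against 4 and from 5 against 4 arrays.

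Tissues that may be carried along with dissected lung were also measured. Of 18 heart genes 0 passed, with list means of 8.7149 to 9.6633 at PN1 and 9.0004 to 9.9363 at PN7. Of 9 brown fat genes 0 passed, with list means of 8.52 to 8.87 at PN1 and 8.65 to 9.59 at PN7. Ucp1, the uncoupling protein that defines brown fat, read 8.12, 8.14 and 8.11 at PN1 and 8.06 on PN7 replicate 1, but 11.95, 10.25 and 12.22 on PN7 replicates 2 to 4, all on slide 2 (2.50 ± 1.45, adjusted p = 0.345). Of 14 neutrophil, 14 T and NK cell, 4 thymus, 3 B cell and 13 skeletal muscle genes 0 passed. The neutrophil list mean was nonetheless lower at PN7, at 8.79 to 8.83 against 9.15 to 9.22 at PN1, with 7 of its 14 genes lower without overlap (11.4% of all probes), 0 higher without overlap and a median of -0.18. The part of Ucp1 and of the neutrophil genes in the other results was not tested. Igf2, a fetal growth factor, had a difference of -0.65 (adjusted p = 0.586), Fos one of 0.68 (0.441), Cd74 of -0.15 (0.71) and Vegfa of 0.07 (0.893). Mki67, a proliferation antigen, had -0.16 (0.0602).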

How the data were processed

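Whole-lung RNA was prepared with Trizol and DNase and labelled as biotinylated cRNA, per the labels' protocols. The deposited signals comprise raw intensity and a detection p-value for 22226 probes per array, per the file headers, and 72 per-sample columns (bead spread and number) were not used. The authors also deposited log2 values made with lumi, per the submitters' processing notes, used here as an alternative. Precision is limited by the number of arrays.

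Intensities were corrected by normexp with an offset of 16, quantile normalised and log2 transformed (neqc, limma 3.58.1, R 4.3.3 and data.table, version 1.17.8), and plotted with matplotlib 3.10.9. A probe entered the tests if 3 or more of the 36 arrays detected it (p under 0.01), in a limma fit of 9 group means with Benjamini-Hochberg adjustment over 11339 probes (2-sided, threshold 0.05). Of the probes, 13192 carry 1 gene in GEO's platform annotation, which can be old, and the rest are unnamed here. The brightest tested probe stood for a gene in a list. Where a probe was detected at 1 age only, the fold is a lower bound, written "at least", with the dim arrays set at the lowest signal of any detected probe. Promoters were matched by gene identifier. The sequence of 1 promoter is not reported here.

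Lead genes are the 15 highest and 15 lowest that passed, were detected on every array of the brighter group, did not overlap between the ages and had the same sign on PN7 replicate 1. Up to 5 passing members of each list, up to 2 moving against its majority, 5 genes in each direction apart from both other strains, and Eln, Col1a1, Sftpc, Sftpb, Scgb1a1, Mki67, Cdk1, Igf2, Hbb, Cd74, Fos and Vegfa whatever their values, could also be named. Other list members named were picked after their values were seen. The members, lists and tests were chosen with earlier results of these data known. Alternatives were other scalings and filters, slide as a block, a replicate block and each Lewis array left out. The fit was tested on simulated data.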

Additional observations from a re-analysis of the deposited data

Results flagged for a closer look

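Each named gene and each of 56 list means was examined for a Lewis PN7 array far from the other 3, by Dixon's critical value for 4 samples. In all, 6 genes and 2 lists had one, and chance alone gives about 1 in 20. PN7 replicate 1 was the highest for Hacd3 at 9.73 (9.47 to 9.50 on the others) and for Txnrd1 at 9.67 (9.60 to 9.61), and the lowest for Scgb1a1 at 16.01 (16.04 on the others, all near the top of the scale). PN7 replicate 3 was the lowest for Manf at 11.13 (11.39 to 11.43), for Rps26 at 14.61 (14.82 to 14.84) and for the mean of the interferon response list at 9.34 (9.43 to 9.44). Replicate 4 was the highest for Cxcl17, a mucosal chemokine, at 11.99 (11.85 to 11.86), and replicate 2 for the mean of the smooth muscle and myofibroblast list at 10.42 (10.31 to 10.32).

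For 19 named genes the change in Lewis differed from that in Fisher and from that in Brown Norway, tested as a difference of changes in limma. The smaller of both differences is given, Lewis minus the other strain, on the log2 scale. It was positive for Fst (1.28), Anxa3 (0.89), Ptgis (0.87), Arf2 (0.76), Procr (0.70) and Gclc (0.50). Among the folding and heat shock genes it was -1.24 for Creld2, -1.08 for Hspa5, -0.93 for Manf, -0.71 for Hspa8, -0.69 for Chordc1 and -0.45 for Dnaja1. Maob stood at -1.36, S100g at -0.93, Bmp4 at -0.82, P4ha1 at -0.78, Kcne2 at -0.59, Bmp3 at -0.35 and Ifi47 at -0.28. All 19 also differed from both strains without the 2 Brown Norway arrays and with slide as a fixed block, 16 did in the authors' deposited log2 values, and 3 did with median scaling. Since the strains mostly share slides 1 and 2, a slide block could change these differences of changes little.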

How the results depend on the processing

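Of the named genes, 0 changed sign in any setting in which either value passed. Probes changed between the ages made up 6.85% of those tested (3.17% higher, 3.69% lower, 0.388% at least 2-fold). With array median scaling they were 0.326% (0.106% higher, 0.220% lower, 0.106% at least 2-fold), and with slide as a fixed block 0.476% (0.203%, 0.273% and 0.0617%). Slide as a random block gave 3.47% (1.61% higher, 1.86% lower, correlation 0.127), and PN7 replicate 1 within slide 1 gave 1.08% (0.776%, 0.309% and 0.141% at least 2-fold). Leaving out 2 Brown Norway arrays gave 12.4% (5.94% higher, 6.45% lower). The authors' deposited log2 values gave 5.90%, with 1.10% at least 2-fold. Without the detection filter, 3.32% passed of a larger number tested. Without 1 Lewis array the share ran from 2.32% to 6.65% (1.01% to 3.16% higher, 1.31% to 3.49% lower).

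Of the 777 changed probes, 45 also passed with slide as a fixed block and 71 within slide 1. At an unadjusted p under 0.05 there were 2360 probes, 1188 with median scaling and 1287 with slide as a fixed block. Probes apart from both other strains made up 0.997%, 0.0617% with median scaling, 1.95% without the 2 Brown Norway arrays and 0.582% to 1.05% without 1 Lewis array. Within slide 1, settings added after seeing the data gave 0.00882% with median scaling, 0.485% with the deposited values and 0.591% without background correction, beside 1.08%. Without the 2 Brown Norway arrays 8 endothelial and 7 TGF-beta and BMP genes rose and 6 surfactant genes fell. The causes were not tested.

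Lewis PN1 and PN7 share replicate numbers, and the deviations of same-numbered arrays from their group means correlated at r of -0.043, 0.024 and 0.014. Pairs with unlike numbers ran from -0.082 to 0.104. With so few arrays these values cannot show whether same-numbered arrays share more than a number. The replicate block gave 9.13% of probes, within 1.5 times the main count. Probes near background have folds shrunk by the offset. In the authors' deposited log2 values Mmp12 differed by 1.70 (0.36 here), Bmp2 by 1.25 (0.58 here) and P4ha3 by -1.16 (-0.21 here).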
